A study of Mus musculus with 10 samples.

Results

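The immediate early and dissociation stress genes are a set of 33 genes whose transcripts can appear within minutes of a signal, and which enzymatic digestion and cell sorting can themselves raise. They were found by symbol in the table of read counts per gene, where each of the 33 had a row among 55487 genes, and were arranged by role: 8 AP-1 transcription factors, 3 EGR factors, 3 NR4A receptors, 3 KLF factors, 4 genes of the IER and CSRNP families, 4 signalling feedback inhibitors, 5 mRNA decay factors and 3 heat shock genes. Their levels were compared in microglia of the mouse retina from littermate controls (Control, n = 3), from mice 4 weeks after streptozotocin (4wk STZ, n = 3) and from mice 8 weeks after it (8wk STZ, n = 4). Streptozotocin (STZ) kills the insulin-producing cells of the pancreas and makes mice diabetic. All 10 animals, controls included, were Cx3cr1GFP/+, with green fluorescent protein in place of 1 copy of the fractalkine receptor gene, a gene that other myeloid cells also express. Each library came from the pooled retinas of 1 animal after digestion with papain for 40 minutes at 28 °C, mechanical dispersal and sorting of viable GFP-positive cells, a handling that the labels describe alike for all groups. Ages, sexes, and dates of sorting or library preparation are not in the labels, and there is a single control group for both times.

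Immediate early genes are transcribed without new protein synthesis once MAP kinases, calcium or cytokine receptors activate factors such as SRF, ELK and CREB that already sit at their promoters. Many of their products are transcription factors, while others shut the response down again, either by removing phosphate from MAP kinases (the DUSP family), by blocking cytokine receptors (Socs3) or by speeding the decay of short-lived messengers (the Zfp36 and Btg families). In microglia the same genes respond to injury and to inflammatory signals, and they are also known to rise when tissue is digested warm, so a level measured after sorting can hold both.

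Library totals ran from 33266838 reads in 4wk STZ 3 to 62903489 in 8wk STZ 1, and levels are given as CPM, counts scaled to a common library size after TMM correction for composition. Markers of the labelled cell type were abundant in every library. The 10 microglial genes summed to 36810 to 41530 CPM in Control, 32780 to 36810 in 4wk STZ and 29780 to 32330 in 8wk STZ. Transcripts of other cells were present as well, and some of these lists moved with the groups. The 16 rod markers summed to 13330 to 14820 CPM in Control, 7347 to 10680 in 4wk STZ and 4843 to 6083 in 8wk STZ, and none of them was at 0. The 6 border macrophage markers summed to 74.6 to 365 CPM, 119.7 to 371 CPM and 15.5 to 539 CPM in the same order. The 6 monocyte and neutrophil markers summed to at most 8.41 CPM in any library. The 10 retinal neuron markers summed to 160 to 189 CPM in Control and 61.1 to 90.7 CPM in 8wk STZ. The 8 endothelial and pericyte markers summed to 162.5 to 187 and 70.3 to 74.8 CPM in these groups. The 9 Muller glia and astrocyte markers summed to 909.7 to 1373 and 645 to 931 CPM, with overlap. Control 3 and 4wk STZ 3 were least like the other libraries over all genes tested, with a mean correlation of log2 CPM of 0.957 and 0.959 with the other 9, against 0.962 to 0.970 for the rest, so results were also computed without both. In sorted bulk RNA, fewer cells of a type and less RNA per cell cannot be told apart. The part of these differences in the results below was not tested.

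Of the 33 members, 30 had enough reads to be tested, and 1 differed between groups at an adjusted p below 0.05. That gene was Zfp36, higher in 8wk STZ than in Control, by edgeR's quasi-likelihood test with Benjamini-Hochberg adjustment over all 18957 genes tested. Against a background of 2.37% of all genes called at 8 weeks (0.971% higher and 1.4% lower), 1 of 30 is near the general share by this test. Other tests called up to 7 members, given below with their own backgrounds. At an unadjusted p below 0.05, 7 members were higher and 2 lower at 8 weeks, where 8.42% of all genes were higher and 7.24% lower. At 4 weeks no member was called, and the background was 0.0%. At an unadjusted p below 0.05, 2 members were higher and 1 was lower at 4 weeks, where 4.78% of all genes were higher and 4.97% lower. Between 8wk STZ and 4wk STZ no member was called either, where 0.918% of all genes were (0.396% higher and 0.522% lower), and 4 members were higher and 1 lower at an unadjusted p below 0.05 (backgrounds 7.18% and 6.48%). These comparisons share libraries and are not independent of one another.

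At 8 weeks 20 of the 30 tested members were fitted above 0 and 10 below it, with a median log2 fold change of 0.155, beside -0.0061 over all genes tested. At 4 weeks 19 were above and 11 below, with a median of 0.166 beside -0.00388. Both medians moved when single libraries were left out. The filter was run again in each of these fits, so the members counted could differ from these 30. The 8-week median was 0.283 without Control 1, 0.0764 without Control 2, 0.0743 without 4wk STZ 1, 0.0780 without 4wk STZ 3 and 0.0445 without 8wk STZ 3. The 4wk STZ libraries belong to neither group of that comparison. With all libraries and no filter the 8-week median was 0.0876. The part of the members counted in these shifts was not tested. The 4-week median was 0.315, 0.0400 and 0.0737 without Control 1, 2 and 3, and 0.0725 without 4wk STZ 1. At 8 weeks 6 members had every STZ library above every Control library, namely Fos, Junb, Atf3, Ier3, Dusp1 and Zfp36, and 3 had every STZ library below, namely Klf6, Zfp36l1 and Hspa1b. The same held for 8.91% of all genes upward and 7.99% downward. At 4 weeks it held for 1 member upward, Klf4, and 1 downward, Egr2 (backgrounds 6.07% and 6.25%), and between the STZ groups for Fos and Zfp36, both higher at 8 weeks (backgrounds 8.39% and 6.97%).

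**Figure D1:**
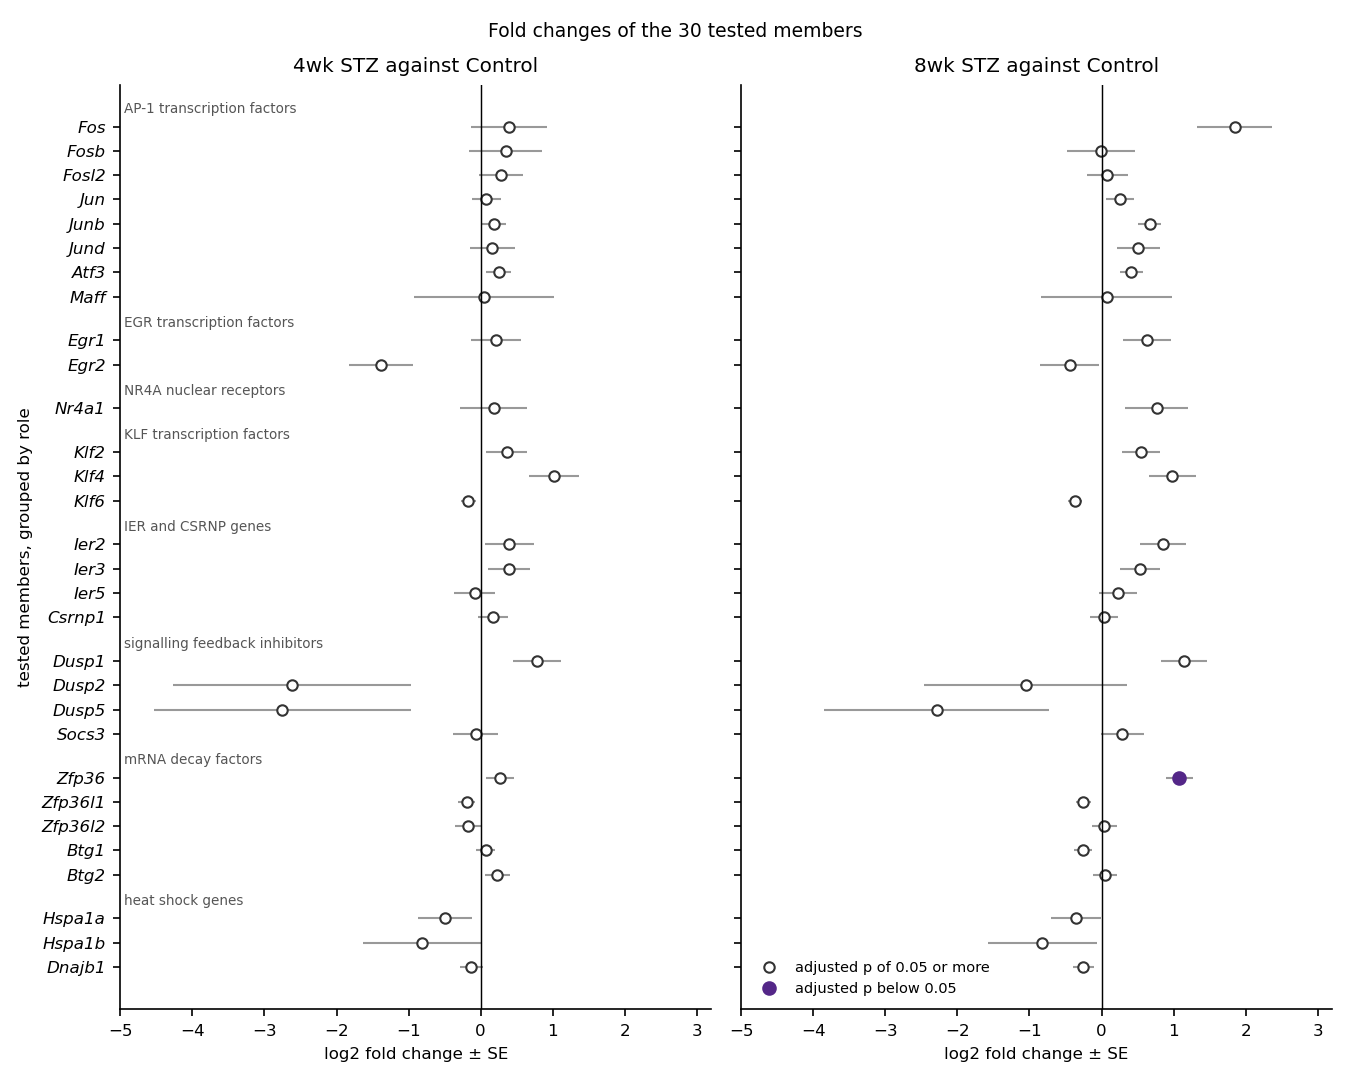
Log2 fold change with its standard error (horizontal axis) for the 30 tested members (vertical axis, grouped by role), with 4wk STZ against Control on the left and 8wk STZ against Control on the right. The filled point is Zfp36 at 8 weeks, at 1.08, and open points have an adjusted p of 0.05 or more. Fos lies farthest to the right at 8 weeks, at 1.85, with a wider error, and the 3 heat shock genes lie left of 0 at both times.

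The promoters of the 4 members that are discussed most, chosen after their values were seen, show what kind of regulatory sequence these genes carry. Sequences were taken from RefSeq (GRCm38.p6), which had a window for 29 of the 33 members, and the 250 bases before the annotated start were searched on both strands for 7 motifs. Ier2, Egr1, Egr3 and Zfp36l2 had no window and were not searched. Capitals mark matches. The full CRE, bound by CREB and ATF factors, is TGACGTCA, and its shorter core, TGACG, is contained in it. The other motifs were the TATA box TATAAA, an EGR site GCGGGGGCG, a heat shock element TTCNNGAA, an AP-1 site TGANTCA and the CArG box bound by SRF. The window of Fos lies at chr12:85473640-85473889 on the plus strand, that of Junb at chr8:84978749-84978998 on the minus strand, and the part of the Dusp1 window outside annotated exons at chr17:26508520-26508722 on the minus strand. The Zfp36 window lies within an exon of a longer transcript in GENCODE vM21, so only 2 stretches of 30 bases are shown, at chr7:28379314-28379343 and chr7:28379267-28379296 on the minus strand.
Fos: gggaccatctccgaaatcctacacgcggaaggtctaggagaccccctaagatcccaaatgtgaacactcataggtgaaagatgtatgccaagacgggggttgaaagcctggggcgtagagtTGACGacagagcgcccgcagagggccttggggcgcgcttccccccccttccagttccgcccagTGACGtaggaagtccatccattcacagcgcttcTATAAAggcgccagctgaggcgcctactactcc
Junb: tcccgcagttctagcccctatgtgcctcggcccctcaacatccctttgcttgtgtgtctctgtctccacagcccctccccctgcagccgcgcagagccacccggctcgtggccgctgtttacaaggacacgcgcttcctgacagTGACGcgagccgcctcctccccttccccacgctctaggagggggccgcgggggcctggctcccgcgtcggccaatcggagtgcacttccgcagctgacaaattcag
Dusp1: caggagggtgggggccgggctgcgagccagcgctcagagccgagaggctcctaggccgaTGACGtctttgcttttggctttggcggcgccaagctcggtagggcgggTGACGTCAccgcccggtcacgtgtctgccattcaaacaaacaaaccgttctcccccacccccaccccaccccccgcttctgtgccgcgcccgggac
Zfp36, EGR site: gagctacgccGCGGGGGCGcgtcccggaag
Zfp36, CArG box: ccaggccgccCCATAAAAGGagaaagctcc

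Fos carried the CRE core at bases -129 to -125 and -66 to -62 before the start and a TATA box at -33 to -28, and Dusp1 carried the full CRE at -143 to -136. The CRE core occurred in 17 of the 29 members with a window and in 19.8% of all 27025 genes with one. The full CRE occurred in 3 members (Btg2, Dusp1 and Maff) and 1.77% of genes, and the EGR site in 8 members, Zfp36 among them, and 2.93% of genes. The CArG box was found in Dusp5, Egr2 and Zfp36 and in 1.62% of genes, and the TATA box in 4 members and 14.3% of genes. Sequence farther from the start was not searched, so the search cannot show that Fos or another member lacks a CArG box. The AP-1 site was in 2 members and 7.82% of genes. The heat shock element, searched only as TTCNNGAA, was in 1 member, Egr2, and 8.11% of genes. Other arrangements of this element were not searched, so the search cannot show whether the heat shock genes lack one. A match describes letters and not binding, and none of these shares was tested.

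Among the members, the most abundant per kilobase of exon in Control were Btg2, at 124 CPM per kb, Jun at 117, Zfp36l1 at 93.8, Zfp36 at 91.0, Klf6 at 82.7 and Junb at 80.9. The order of these 6 is by group mean, and the libraries of Btg2 and Jun overlap in range. At 8 weeks Zfp36 stood first, at 192 CPM per kb, followed by Jun at 139, Junb at 129 and Btg2 at 128. At the other end Egr3, Nr4a2 and Nr4a3 had too few reads to be tested. Jun and Btg2 stayed closer to their Control means.

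AP-1 is a dimer that binds enhancers of activated cells, often of a Fos or ATF protein with a Jun protein. The 8 genes grouped here, which include the small Maf gene Maff, were all tested, and none was called at either time. Of these, 8 of 8 were fitted above 0 at 4 weeks and 7 of 8 at 8 weeks (median log2 fold changes 0.216 and 0.335). Fos, the founding inducible subunit (chromosome 12, 85473890 to 85477273), had the highest fitted log2 fold change of the 30 tested members at 8 weeks. It stood at 54.3, 14.1 and 14.6 CPM in Control 1 to 3, at 47.9, 42.0 and 19.8 CPM in 4wk STZ 1 to 3, and at 144, 57.8, 95.05 and 101 CPM in 8wk STZ 1 to 4. All 8wk STZ libraries were above all others, but Control 1 lay close to the lowest of them and 3.84-fold above Control 2. The log2 fold change at 8 weeks was 1.85 (SE 0.520, adjusted p = 0.0989). Without Control 1 it was 2.79 and passed (adjusted p = 0.0191), and without Control 3 it was 1.54 (adjusted p = 0.248), so the call changed with the control left out.

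Junb, a Jun protein that can restrain c-Jun (chromosome 8, 84974484 to 84978718), varied least among controls of the AP-1 genes. Its levels were 197, 186 and 175 CPM in Control 1 to 3, 261, 181 and 192.5 CPM in 4wk STZ 1 to 3 and 369.8, 236, 297 and 286 CPM in 8wk STZ 1 to 4. Every 8wk STZ library lay above every Control library, while 1 of the 4wk STZ libraries reached into the 8wk STZ range. The log2 fold change was 0.67 (SE 0.162, adjusted p = 0.0587) at 8 weeks and 0.18 (adjusted p = 0.812) at 4 weeks. The 8-week value passed without 4wk STZ 1 (adjusted p = 0.0409) and without 8wk STZ 2 (0.0452), and was at an adjusted p of up to 0.168 with other libraries left out. Of its exonic sequence 7.52% is shared with Prdx2, and the kit does not mark strand. Prdx2 stood at 102 CPM in Control and 91.9 CPM in 8wk STZ.

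Jun, which encodes c-Jun, was the AP-1 gene with the highest mean level. It stood at 499.5, 287 and 328 CPM in Control 1 to 3, 481, 378 and 317.5 CPM in 4wk STZ 1 to 3, and 512, 404, 438.5 and 419.8 CPM in 8wk STZ 1 to 4. The groups overlapped: Control 1 was within the range of the 8wk STZ libraries, and 4wk STZ 3 was below Control 3. The log2 fold change at 8 weeks was 0.26 (adjusted p = 0.620). Atf3, a stress-induced partner of Jun proteins, was at 22.1 to 28.6 CPM in Control, 25.0 to 37.1 in 4wk STZ and 32.8 to 35.8 in 8wk STZ. Its 8wk STZ libraries did not overlap with Control (log2 fold change 0.41, adjusted p = 0.234). Fosb and Fosl2, further Fos-type subunits, were lower, with 6.46 ± 3.39 and 6.602 ± 2.1 CPM in Control and 6.40 ± 2.05 and 6.97 ± 1.58 CPM in 8wk STZ. Jund, the more constant Jun protein, was at 6.76 ± 1.53 and 9.65 ± 3.32 CPM, and 52.6% of its exonic sequence is shared with Gm11175, which had no reads. How reads in shared sequence were counted is not given, so the level of Jund is less certain. Maff, a small Maf protein, stayed below 2 CPM in every library.

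**Figure D2:**
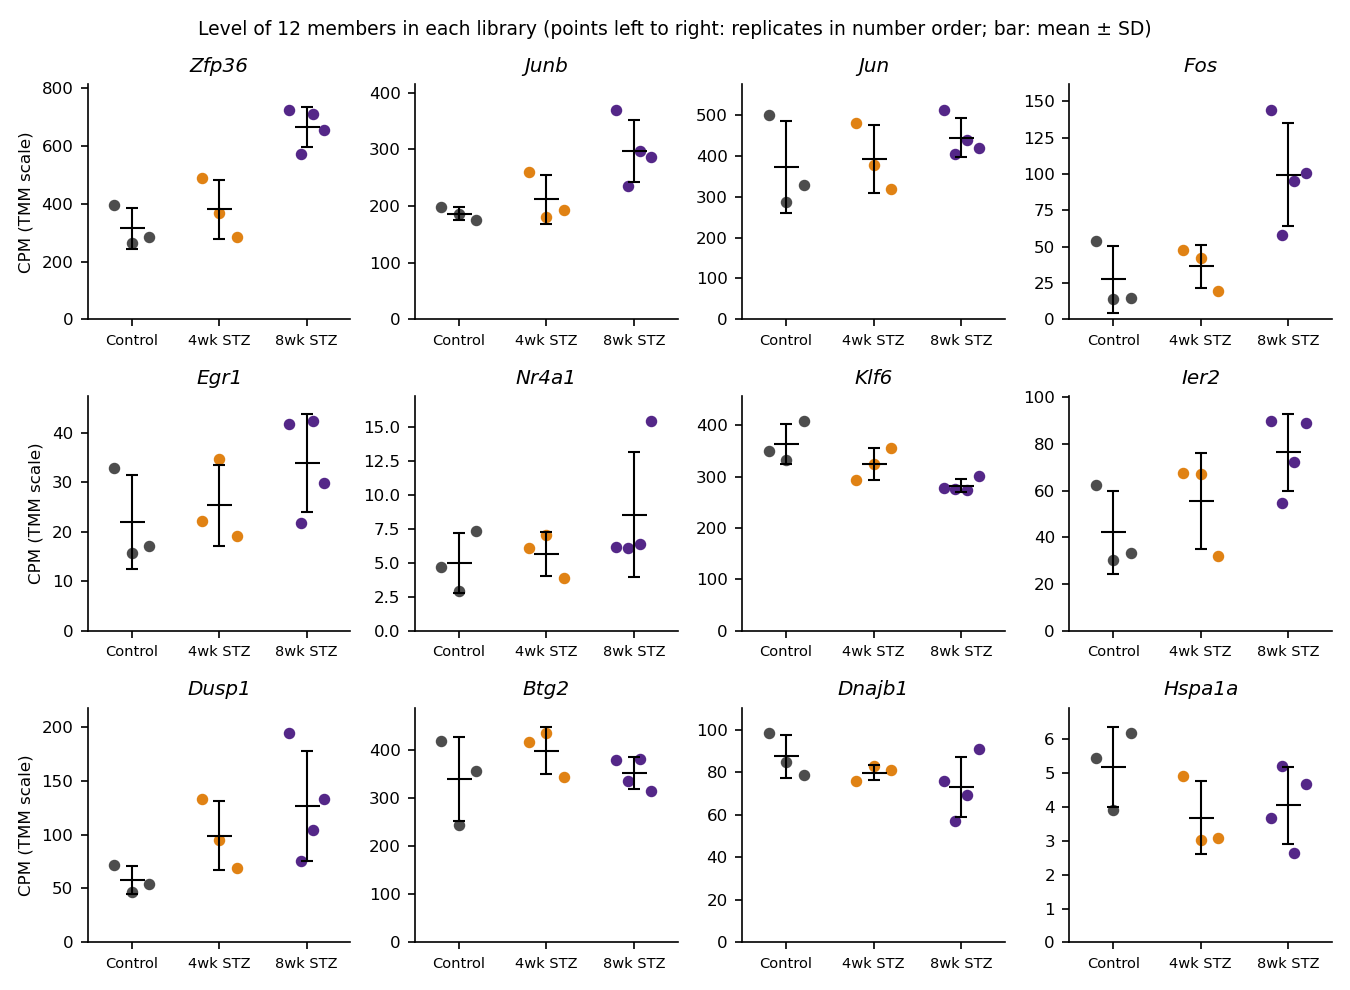
CPM on the TMM scale (vertical axes, each from 0) in every library (points) of Control, 4wk STZ and 8wk STZ (horizontal axes) for 12 members, with the mean and SD as a bar. Zfp36 in 8wk STZ lies between 573 and 726.5 CPM, above all other libraries, and Fos in 8wk STZ lies between 57.8 and 144 CPM, just above Control 1. Klf6 in 8wk STZ lies between 273 and 301 CPM, below all Control libraries.

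EGR proteins are zinc finger factors induced through SRF and ELK. Egr1, the most abundant of them, stood at 32.8, 15.8 and 17.0 CPM in Control 1 to 3, 22.2, 34.6 and 19.2 CPM in 4wk STZ 1 to 3 and 41.7, 21.8, 42.3 and 29.8 CPM in 8wk STZ 1 to 4. The groups overlapped, with Control 1 inside the 8wk STZ range, and the log2 fold changes were 0.21 at 4 weeks and 0.63 at 8 weeks (adjusted p = 0.917 and 0.405). Without Control 1 they were 0.62 and 1.04, and without 4wk STZ 2 the 4-week value was -0.08. Egr2, which also acts in myelin and macrophage programs, went the other way at 4 weeks. It stood at 7.74, 4.545 and 3.37 CPM in Control 1 to 3, 1.74, 2.445 and 1.80 CPM in 4wk STZ 1 to 3, and 5.70, 2.345, 4.18 and 3.14 CPM in 8wk STZ 1 to 4. The 4wk STZ libraries lay below all Control libraries (log2 fold change -1.38, SE 0.448, adjusted p = 0.361), and the 8wk STZ libraries overlapped with both groups. Egr3 was not tested and had at most 19 reads in a library, with 4 of the 10 libraries at 0.

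NR4A receptors are orphan nuclear receptors that limit inflammatory transcription in macrophages. Nr4a1, also called Nur77, stood at 4.71, 2.95 and 7.32 CPM in Control 1 to 3, 6.08, 7.02 and 3.89 CPM in 4wk STZ 1 to 3 and 6.19, 6.13, 6.41 and 15.4 CPM in 8wk STZ 1 to 4. Apart from 8wk STZ 4 the diabetic libraries were within the Control range, and the log2 fold change at 8 weeks was 0.77 (SE 0.437, adjusted p = 0.454). Nr4a2 had at most 16 reads and Nr4a3 at most 27 in a library, with 3 and 5 of the 10 libraries at 0, so neither was tested. A library without a read allows up to 0.0476 to 0.0933 CPM, the worth of 3 reads at these depths, which covers counting error only.

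The KLF factors split. Klf6, a zinc finger factor of activated macrophages and the most abundant of the 3, was at 350.0, 332 and 407.5 CPM in Control 1 to 3, 293, 324 and 355 CPM in 4wk STZ 1 to 3 and 277, 276.5, 273 and 301 CPM in 8wk STZ 1 to 4. All 8wk STZ libraries were below all Control libraries, and the 4wk STZ libraries overlapped with Control (8-week log2 fold change -0.37, SE 0.0957, adjusted p = 0.0781). With upper-quartile scaling this value passed, at -0.41 (adjusted p = 0.0473). Klf4, which acts in monocyte differentiation, stood at 17.3, 7.54 and 8.64 CPM in Control 1 to 3, 31.4, 18.3 and 18.3 CPM in 4wk STZ 1 to 3 and 21.6, 16.3, 23.2 and 26.8 CPM in 8wk STZ 1 to 4. Control 1 lay within the range of the 8wk STZ libraries and below all 4wk STZ libraries, and the log2 fold change was 1.02 at 4 weeks (SE 0.344, adjusted p = 0.378) and 0.98 at 8 weeks (SE 0.326, adjusted p = 0.163). Klf2, which keeps endothelial and immune cells quiescent, was at 14.9 ± 3.70, 19.1 ± 2.69 and 21.75 ± 6.31 CPM in Control, 4wk STZ and 8wk STZ.

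Of the IER and CSRNP genes, Ier2, a nuclear regulator induced by growth factors, was the most abundant per length. It stood at 62.4, 30.4 and 33.5 CPM in Control 1 to 3, 67.5, 67.2 and 31.8 CPM in 4wk STZ 1 to 3 and 89.7, 54.8, 72.2 and 88.8 CPM in 8wk STZ 1 to 4. Control 1 lay within the range of the 8wk STZ libraries and 4wk STZ 3 within that of the low controls (8-week log2 fold change 0.86, SE 0.320, adjusted p = 0.216). Ier3, an inhibitor of cell death, was at 10.6 to 19.9 CPM in Control and 21.0 to 26.2 CPM in 8wk STZ without overlap (log2 fold change 0.53, adjusted p = 0.406). Ier5 and Csrnp1 were at 21.1 ± 5.46 and 18.15 ± 3.18 CPM in Control and at 24.75 ± 7.88 and 18.6 ± 2.14 CPM in 8wk STZ (adjusted p = 0.790 and 0.972).

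Among the feedback inhibitors, Dusp1, a phosphatase of p38 and JNK kinases, was the most abundant (chromosome 17, 26505590 to 26562128). Its levels were 72.0, 46.3 and 54.3 CPM in Control 1 to 3, 133.0, 95.2 and 68.7 CPM in 4wk STZ 1 to 3, and 194, 75.1, 104 and 133 CPM in 8wk STZ 1 to 4. The 8wk STZ libraries were all above Control, by a narrow margin for 8wk STZ 2, and spread 2.59-fold among themselves. The log2 fold change was 0.78 (SE 0.333, adjusted p = 0.485) at 4 weeks and 1.14 (SE 0.319, adjusted p = 0.0977) at 8 weeks. Socs3, which blocks signalling of interleukin-6 type cytokines, was at 35.8 to 55.2 CPM in Control, 30.4 to 55.5 in 4wk STZ and 38.1 to 87.5 in 8wk STZ, and the groups overlapped (adjusted p = 0.756 at 8 weeks). Dusp2 and Dusp5, phosphatases of ERK and related kinases, had less than 2 CPM in every library. Their fitted values at 8 weeks, -1.05 and -2.29, had standard errors of 1.41 and 1.56.

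The mRNA decay factors held the single member that passed. Zfp36, or tristetraprolin, binds AU-rich elements in messengers such as that of tumour necrosis factor and brings in the deadenylase that shortens their tails (chromosome 7, 28376784 to 28380253, minus strand). It stood at 397, 265 and 285 CPM in Control 1 to 3, at 489, 367 and 286 CPM in 4wk STZ 1 to 3, and at 726.5, 573, 711 and 657 CPM in 8wk STZ 1 to 4. Each 8wk STZ library was above each library of the other groups, and the 4wk STZ libraries overlapped with Control. Zfp36 rose at 8 weeks by 1.08 on the log2 scale, or 2.11-fold (SE 0.191, adjusted p = 0.0170), and differed by 0.27 (SE 0.199, adjusted p = 0.740) at 4 weeks and by 0.81 (SE 0.189, adjusted p = 0.0773) between the STZ groups. The adjusted p at 8 weeks rose above 0.05 without Control 2 (log2 fold change 0.97, adjusted p = 0.0651), Control 3 (1.01, 0.0669) or 8wk STZ 3 (1.05, 0.0511). It remained below 0.05 in 17 of 20 alternative fits, among them the fit without Control 3 and 4wk STZ 3 together (1.01, 0.0435). The difference between the STZ groups passed without 4wk STZ 1 (1.03, 0.0496). An overlap of 3.6% of its exonic sequence with Gm44710 involves a gene at 0.0559 CPM or less in each group mean.

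The other decay factors did not share this. Zfp36l1, a paralog with the same RNA-binding fold, was at 256 to 324 CPM in Control and 230 to 246 CPM in 8wk STZ without overlap, in the opposite direction (log2 fold change -0.25, SE 0.109, adjusted p = 0.304). Its reads may be less certain, since 55.9% of its exonic sequence is shared with Gm26669. No counted gene was found under that symbol, so a level of Gm26669 cannot be given. Zfp36l2 was at 34.2 ± 5.73 and 35.1 ± 5.96 CPM in Control and 8wk STZ. Btg2, a p53-induced partner of the CCR4-NOT deadenylase, was at 339 ± 87.9, 398 ± 48.6 and 352 ± 33.2 CPM in Control, 4wk STZ and 8wk STZ, and its paralog Btg1 at 266 ± 28.3, 279.5 ± 45.7 and 222 ± 22.5 CPM. None of these 4 was called in any contrast, and at 8 weeks 3 of the 5 decay factors were fitted above 0 and 2 below it (median 0.0392).

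Heat shock genes, which HSF1 switches on when proteins unfold and which can rise in cells that are handled warm, did not pass the test in either diabetic group. All 3 were fitted below 0 at both times (median log2 fold changes -0.493 at 4 weeks and -0.357 at 8 weeks). Dnajb1, a co-chaperone of Hsp70, stood at 98.7, 85.0 and 78.7 CPM in Control 1 to 3, 75.8, 82.9 and 80.9 CPM in 4wk STZ 1 to 3, and 75.7, 57.2, 69.3 and 91.0 CPM in 8wk STZ 1 to 4. The groups overlapped and the log2 fold change at 8 weeks was -0.25 (SE 0.149, adjusted p = 0.473). Hspa1a and Hspa1b, the inducible Hsp70 genes, were low, at 5.18 ± 1.17 and 0.916 ± 0.0313 CPM in Control, 3.675 ± 1.08 and 0.519 ± 0.453 CPM in 4wk STZ and 4.04 ± 1.13 and 0.517 ± 0.267 CPM in 8wk STZ. The split of reads between them is uncertain, since 38.1% of stretches of 150 bases of Hspa1a also occur in Hspa1b.

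Set side by side at 8 weeks, the 4 kinds of gene named for this comparison had median log2 fold changes of 0.335 (AP-1), 0.0949 (EGR, 2 tested), 0.0392 (mRNA decay) and -0.357 (heat shock). Calls came to 0 of 8, 0 of 2, 1 of 5 and 0 of 3. Summed levels per library were 529 to 806 CPM in Control and 748 to 1087 CPM in 8wk STZ for AP-1. They were 20.3 to 40.55 and 24.2 to 47.4 CPM for EGR, 1036 to 1397 and 1405 to 1621 CPM for mRNA decay, and 85.8 to 105 and 63.2 to 95.95 CPM for heat shock. The groups overlapped for AP-1, EGR and heat shock. For mRNA decay they parted narrowly, with 1397 CPM in Control 1 and 1405 CPM in 8wk STZ 2. That sum holds Zfp36, while Zfp36l1 and Btg1 were fitted below 0 and Zfp36l2 and Btg2 slightly above it. The difference between these kinds of gene was not tested.

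**Figure D3:**
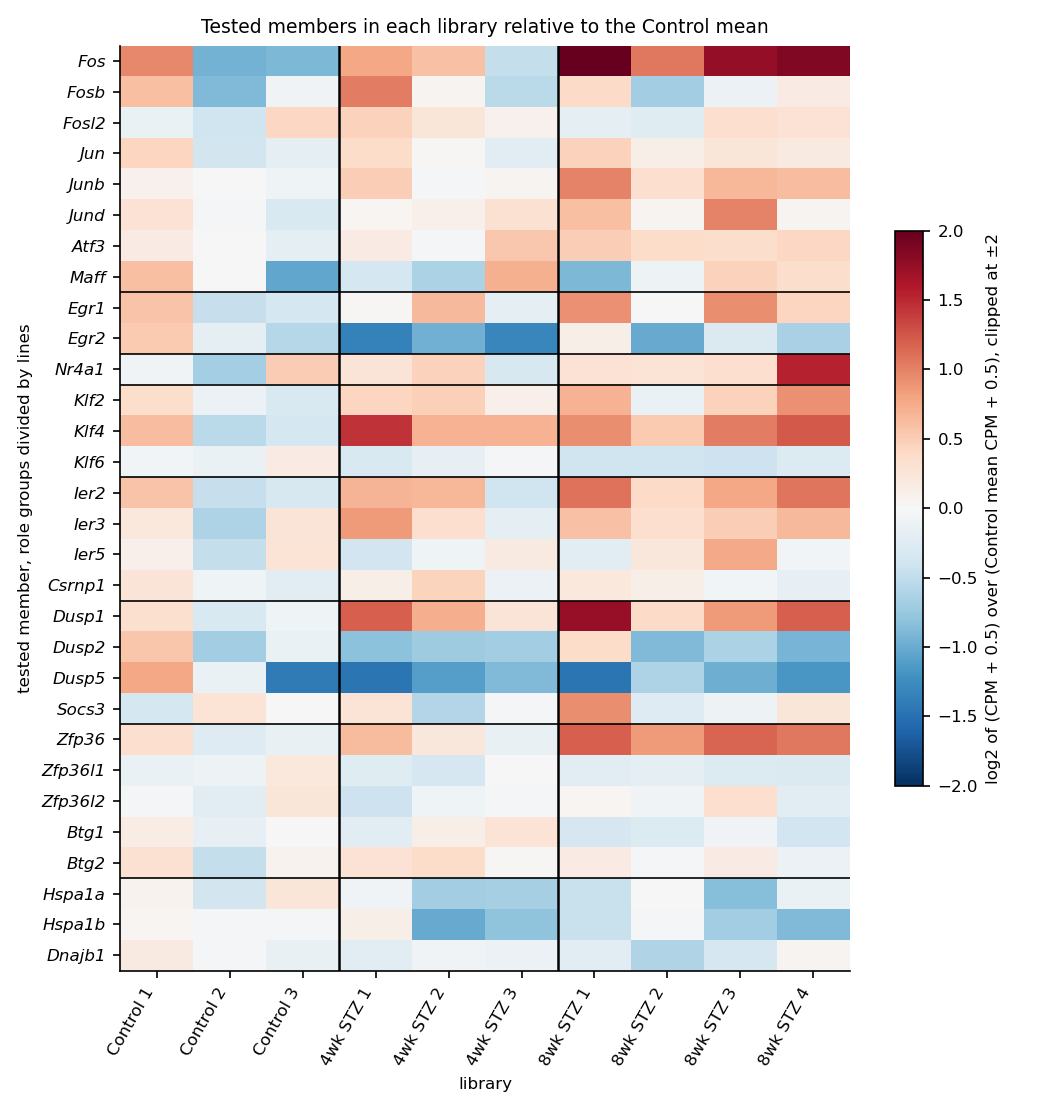
Log2 of (CPM + 0.5) over (Control mean CPM + 0.5), clipped at 2 in either direction, for the 30 tested members (vertical axis, roles divided by lines) in the 10 libraries (horizontal axis). Fos and Zfp36 are high in all 8wk STZ libraries, and Control 1 is higher than the other controls for most members.

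Within Control and 8wk STZ, many members had their highest or lowest value in the same library. Control 1 was the highest control for 21 of the 30 tested members and Control 2 the lowest for 18, where 33.3% of all genes had their highest control value in Control 1 and 33.3% their lowest in Control 2. In 8wk STZ, library 1 was the highest for 12 members and library 2 the lowest for 17 (backgrounds 24.9% and 27.0%). In 4wk STZ no library stood out in this way, with 7 to 13 members highest and 8 to 13 lowest in each. These counts were not tested. Over the 20 members with a mean of at least 10 CPM, the median SD of log2 CPM within a group was 0.313 in Control and 0.280 and 0.247 in the diabetic groups at 4 and 8 weeks, beside 0.226, 0.228 and 0.184 over all 8300 genes at that level. Handling times per animal are not in the labels, and their part in this was not tested.

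Among the 137 genes of 7 related lists that hold no member, 130 were tested, and at 8 weeks 3 were higher and 1 was lower, where 2.37% of all genes were called. Of the other AP-1 and CREB family (11 tested), Batf3, a partner of Jun proteins in dendritic cells, rose by 0.83 on the log2 scale (SE 0.187, adjusted p = 0.0461), with 15.5 ± 2.38 CPM in Control and 27.5 ± 2.61 CPM in 8wk STZ. Of the other immediate early genes (20 tested), Ppp1r15a, which restarts translation after stress, rose by 0.96 (SE 0.211, adjusted p = 0.0431), with 28.1 ± 4.62 and 54.4 ± 15.3 CPM in the same groups. It was at 52.5 ± 6.99 CPM in 4wk STZ already (adjusted p = 0.257). The call of Batf3 was lost without 4wk STZ 2 (adjusted p = 0.0665) and without any 1 Control or 8wk STZ library (0.0615 to 0.143), and that of Ppp1r15a without any 1 of the 10 libraries (0.0501 to 0.133). Of the dissociation genes outside the set (17 tested), 14 were fitted above 0 at 8 weeks and 3 below it (median log2 fold change 0.229). For 5 of the 17 every 8wk STZ library was above every Control library, and for 0 below (backgrounds 8.91% and 7.99%). The list as a whole was not tested. Its chemokine gene Ccl3 was called at 8 weeks with each of the 10 libraries left out in turn. It was at 42.9 to 55.4 CPM in Control, 47.6 to 62.7 in 4wk STZ and 84.3 to 100.4 CPM in 8wk STZ, and was also higher at 8 than at 4 weeks (log2 fold change 0.70, adjusted p = 0.0405), a call lost with 9 of the 10 libraries left out in turn.

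The other chaperones were mixed. Of 23 tested, 1 was called, Hsp90aa1, the inducible cytosolic Hsp90, which stood at 173 ± 30.4 CPM in Control and 99.2 ± 9.39 CPM in 8wk STZ. It fell by 0.80 on the log2 scale (SE 0.126, adjusted p = 0.0105) and passed with each library left out in turn. The list had 12 genes fitted above 0 and 11 below, with a median of 0.0486. None of the 18 upstream regulators was called, with Rps6ka1 at 579.9 ± 21.1 and 509 ± 19.4 CPM and Mapk3 at 181 ± 20.0 and 156 ± 27.4 CPM in Control and 8wk STZ. Nor was any of the 15 other phosphatases and feedback genes, of which 14 were fitted below 0 (median -0.289), with Dusp6 at 553 ± 135 and 502.5 ± 105 CPM and Dusp3 at 292 ± 37.7 and 266.5 ± 18.3 CPM. None of the 26 genes of the mRNA decay machinery was called (median -0.0498), with the deadenylase subunit Cnot8 at 205 ± 26.1 and 203 ± 23 CPM and Pan3 at 101.6 ± 16.6 and 162 ± 14.2 CPM (adjusted p = 0.980 and 0.0664).

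The authors' deposited table lists 27 of the 33 members with their own fits. By the authors' deposited table, an FDR below 0.05 was reached at 8 weeks by 7 members, Dusp1, Fos, Ier2, Junb, Klf4, Klf6 and Zfp36, where 7.29% of its 14475 genes did, and by none at 4 weeks, where 0.801% did. Zfp36 had a log2 fold change of 1.08 and an FDR of 4.12e-07 in the authors' deposited table, Fos 1.84 and 0.000815, and Junb 0.67 and 0.00195. The fold changes are close to those given above, and the number of members called depends on the test. DESeq2 called the same 7 members at 8 weeks (8.52% of genes), edgeR's likelihood ratio test 5, which left out Ier2 and Klf4 (6.15% of genes), and limma-voom 3, Fos, Junb and Zfp36 (3.19% of genes). At 4 weeks these tools called no member, where they called 1.77%, 1.29% and 0.0% of genes. Between 8 and 4 weeks DESeq2 called Junb and Zfp36 (7.1% of genes), and the likelihood ratio test and limma-voom called Zfp36 alone (4.0% and 1.1% of genes).

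**Figure D4:**
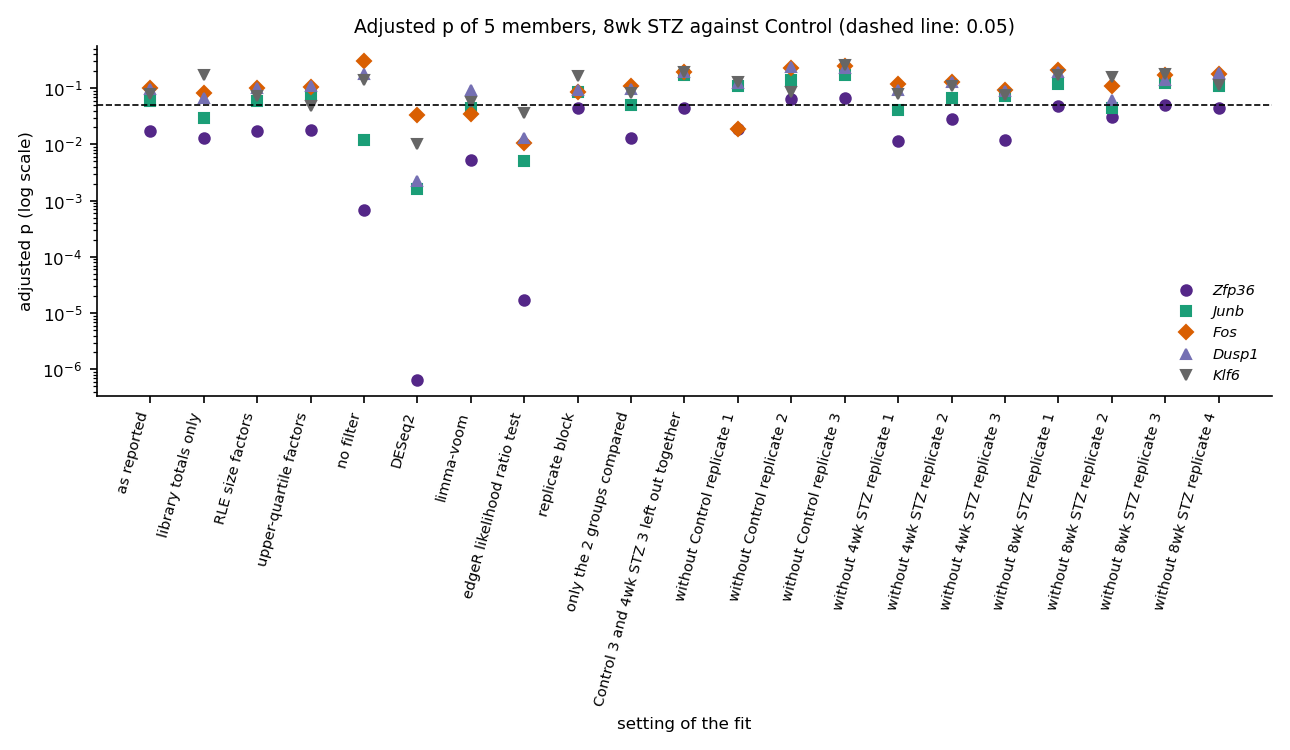
Adjusted p on a log axis (vertical) of 5 members at 8 weeks against Control in the fit as reported and in 20 alternatives (horizontal axis), with the 0.05 threshold dashed. Zfp36 lies below the line except without Control 2, Control 3 or 8wk STZ 3, at up to 0.0669, while Junb, Fos, Dusp1 and Klf6 lie above it in most settings and below it in 8, 4, 2 and 3 of them.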

How the data were processed

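Raw counts of reads for every gene, as whole numbers, were deposited in a single table. STAR, featureCounts, Salmon, edgeR and limma appear in the submitters' processing notes, along with the build GRCm38. What made the counts, with which annotation, strand setting and rule for multiply mapped reads, is not given in the sources used here. RNA of 1.0 to 2.0 ng was amplified with the SMARTer Ultra Low kit and read in pairs of 150 bases, per the labels' protocols. The second deposited table gives the authors' log2 fold changes, a likelihood ratio score, p-values and FDR, per the file headers, and was used only where named. Of the numeric columns, 1 was not used.

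From 55774 rows, 287 repeats of an identifier were dropped. Counts were scaled by TMM, filtered with filterByExpr by group (18957 genes left) and fitted with 1 mean per group over all 10 libraries by edgeR 4.0.16 in R 4.3.3 (robust quasi-likelihood F-test, 7 residual degrees of freedom, biological coefficient of variation 0.564). P-values were adjusted by Benjamini-Hochberg over all genes, with calls made at an adjusted p below 0.05. Standard errors (SE) were derived from the test, as the absolute log2 fold change divided by the square root of the F statistic. The script was tested on simulated data. Libraries of a group differed by far more than sampling noise (chi-square per degree of freedom of 51.2 or more), and values are mean ± SD over libraries. Reads carry no molecular identifiers, so floors cover counting error only. Exonic overlaps and lengths come from GENCODE vM21. DESeq2 1.42.0, limma 3.58.1 and the alternatives of the closing section used the same counts.

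The members and lists were chosen with earlier results of these data known. Values in every library are given for called members and for the most abundant member of each role, and for Fos, Junb, Klf4 and Egr2, chosen after their values were seen. Of the related lists, called genes are named, or else the 2 with the highest mean level.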

Additional observations from a re-analysis of the deposited data

Results flagged for a closer look

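In 8wk STZ, 3 of the 30 tested members had 1 library far from the other 3, by Dixon's ratio of gap to range at the 95% level, where chance gives about 1 in 20 groups. Nr4a1 stood at 15.4 CPM in 8wk STZ 4, and at 6.13 to 6.41 CPM in the other libraries. Klf6 stood at 301 CPM in 8wk STZ 4, above 273 to 277 CPM, and still below every control. Dusp2 stood at 0.7298 CPM in 8wk STZ 1, and at most at 0.119 CPM in the others. The chemokine gene Ccl3, which is no member, differed between the diabetic groups, with a log2 fold change of 0.70 for 8wk STZ against 4wk STZ (adjusted p = 0.0405 by edgeR's quasi-likelihood test). This call was kept in 1 of the 10 fits with a library left out, with an adjusted p of up to 0.127. Ccl3 was higher in 4 of 4 8wk STZ libraries than in any 4wk STZ library, as were 8.39% of all genes.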

How the results depend on the processing

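At 8 weeks, members called numbered 2 with library totals as the only scaling, with upper-quartile factors, without a filter and with only the 2 groups compared, 7 with DESeq2, 3 with limma-voom and 5 with the likelihood ratio test, beside 1 as reported, and 0 to 2 with a library left out. Genes called in all numbered 1451, 1166 and 275 with DESeq2, with the likelihood ratio test and without Control 3 and 4wk STZ 3, beside 449, and 206 to 462 with a library left out. At 4 weeks they numbered 12 without a filter, 314 with DESeq2 and 244 with the likelihood ratio test, beside 0, and 0 to 1 with a library left out. Between 8 and 4 weeks, members called numbered 2 with DESeq2 and 1 without a filter, with limma-voom and with the likelihood ratio test, beside 0, and 0 to 1 with a library left out. Genes called there numbered 277 without a filter, 1004 with DESeq2, 759 with the likelihood ratio test, 100 with only the 2 groups compared and 6 without Control 3 and 4wk STZ 3, beside 174, and 13 to 118 with a library left out.

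The labels do not say that replicate numbers pair the samples. Deviations of same-numbered libraries correlated at -0.0297 to 0.0348, and those of differently numbered libraries at -0.0393 to 0.0394. These values cannot show whether animals shared a litter or a day of sorting. With the replicate block, genes called numbered 44 at 8 weeks and 0 between 8 and 4 weeks, Zfp36 remained called (adjusted p = 0.0444), and the calls of Batf3, Ppp1r15a, Ccl3 and Hsp90aa1 were lost (0.107, 0.140, 0.0610 and 0.101). Replicate 4 exists only in 8wk STZ, so the block removes that library. Rises made up 41.0% of calls at 8 weeks, 66.0% with library totals and 30.9% with upper-quartile factors. No called value of a member changed direction under an alternative that was run. The cause of the changes in these counts was not tested. Members under 2 CPM are limited by depth.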
